A study of Homo sapiens with 6 samples.

Results

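Gene expression after 5 days of induced CaMK2D knockout (KO) was compared with that of control cells in MOLM-13, a human acute myeloid leukaemia line labelled as the monocytic subtype M5. The comparison used 4 of the 6 RNA-seq libraries of the study, chosen by their labels. They were 2 libraries of the genotype labelled control, which had no doxycycline, and 2 of the genotype labelled CaMK2D-KO, which carried a doxycycline-inducible knockout vector and had been given doxycycline for 5 days. The remaining 2 libraries, CaMK2D-KO with doxycycline for 3 days, entered the same model as a further group, and their values are given beside the day 5 values where they help. All cells were grown in RPMI 1640 with fetal bovine serum. The controls differ from the day 5 cells in doxycycline, and whether they carried the vector is not clear from the labels. Effects of doxycycline, and of the vector if the controls lacked it, cannot be told apart from those of the knockout. Whether the paired libraries are from separate cultures, and whether the knockout cells are a clone or a pool, is not in the labels. The p-values therefore reflect spread between libraries that may be no more than technical.

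CaMK2D encodes the delta chain of calcium/calmodulin-dependent protein kinase II, a multi-subunit serine/threonine kinase that is switched on when calcium-loaded calmodulin binds it and that can then stay active by phosphorylating itself. The CAMK2A, CAMK2B, CAMK2D and CAMK2G genes encode chains that assemble into the same holoenzyme. MOLM-13 cells depend on signalling from the receptor kinase FLT3 and keep part of the granulocyte and monocyte programme, with granule enzymes, Toll-like receptors and Fc receptors. Several stress pathways described here act through known factors. NRF2 raises antioxidant and iron storage genes, ATF4 raises genes of the amino acid response, ATF6 and XBP1 raise chaperones of the endoplasmic reticulum (ER), and SREBP factors raise genes of sterol and fatty acid synthesis.

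Of the 24878 genes in the deposited table, 14601 had enough counts to be tested. Levels are CPM (counts for every 1e6 counts of the library) after scaling by trimmed means (TMM), and changes are log2 fold changes, day 5 over control, from a single edgeR quasi-likelihood fit. A gene was called when its p-value, adjusted over all 14601 genes by the Benjamini-Hochberg method, was under 0.05. Total counts ranged from 15456770 to 21081298 over the 6 libraries. The cell label was checked against 12 markers of monocytic leukaemia cells. CD33, FLT3, ITGAM, CSF1R, CSF2RA, SPI1, PTPRC, HOXA9 and MEIS1 all had counts in the 4 libraries, CD68 was at 0 in each, and ANPEP was at 0.259 CPM (unscaled) or less. The summed level of the 12 markers was 2050 CPM in either control and 920 and 1210 CPM after 5 days. Of markers of other cells, CD3D, CD3E, CD3G, CD8A, CD2 and the B cell gene MS4A1 were not analysed here. The 4 markers of T and NK cells in the table (CD4, NKG7, GNLY and TRAC) summed to 320 and 346 CPM in control cells and 157 and 187 CPM after 5 days. Most of this was CD4, at 196 and 264 CPM (unscaled) in control cells and 100 and 136 CPM after 5 days. The 5 epithelial, stromal and packaging cell markers, of which PECAM1 and VIM were the highest, summed to 369 and 211 CPM and then 122 and 128 CPM. PECAM1 alone stood at 219 and 132 CPM (unscaled) and then 41.3 and 44.9 CPM. The 4 B cell markers went from 26.9 and 35.3 to 22.7 and 22.6 CPM and the 3 erythroid and megakaryocyte markers from 4.14 and 5.83 to 2.24 and 6.01 CPM. For these bulk libraries, fewer cells of a type and less RNA per cell cannot be told apart.

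The mRNA of the targeted gene was not lower at day 5. CAMK2D (chromosome 4, 113451032 to 113761927, GRCh38) stood at 23 and 14.5 CPM in control cells and 28.98 and 28.1 after 5 days, with 14.7 and 15.6 CPM at day 3. Both day 5 libraries lay above both controls, with a log2 fold change of 0.61 (with SE 0.23 and edgeR adjusted p = 0.118) that missed the threshold. It passed without control replicate 1 (edgeR adjusted p = 0.0317) and with the replicate number as a block (edgeR adjusted p = 0.0198). The count of exonic reads over the whole gene does not measure an edited coding sequence, and the libraries are called by their labels throughout. CAMK2G, the other chain at a high level, stood at 80.4 and 80.9 CPM in control cells and 71.99 and 65.9 after 5 days, a log2 fold change of -0.23 (with SE 0.14 and edgeR adjusted p = 0.322). CAMK2B was low, at 0.386 and 4.51 CPM in control cells and 0.226 and 0.492 after 5 days, and control replicate 1 lay between the day 5 libraries. Of 10 tested CaMK and calmodulin genes, 0 were called by edgeR, 0 by DESeq2, and 1 in each direction had an unadjusted p under 0.05.

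In all, 2117 of 14601 genes (14.5%) were called at day 5, with 1087 higher (7.44%) and 1030 lower (7.05%). The rises had a median log2 fold change of 0.88 and the falls a median of -0.96, while the median over all tested genes was 0.01 and the middle of the distribution, from the lower to the upper quartile, ran from -0.39 to 0.42. Calls with a change of at least 2-fold numbered 914 (6.26%), 421 higher and 493 lower, and at 8-fold the falls (83) outnumbered the rises (35). Both day 5 libraries lay on the same side of both controls for 8478 genes (58.1%), and for every called gene. In 493 genes (262 higher and 231 lower) the call was made in all 6 fits that each left out 1 library. Without day 5 replicate 2 the count was 723, without day 5 replicate 1 it was 914, and without day 3 replicate 1 it was 1370. Many called genes in the lists and among the largest changes also lost the call in at least 1 of the 6 fits. The losses were most frequent without day 5 replicate 2 and next without day 5 replicate 1. Whether these genes were more or less stable than all called genes was not tested. Where only the highest adjusted p over these fits is given for a gene below, it follows the words "at up to".

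**Figure D1:**
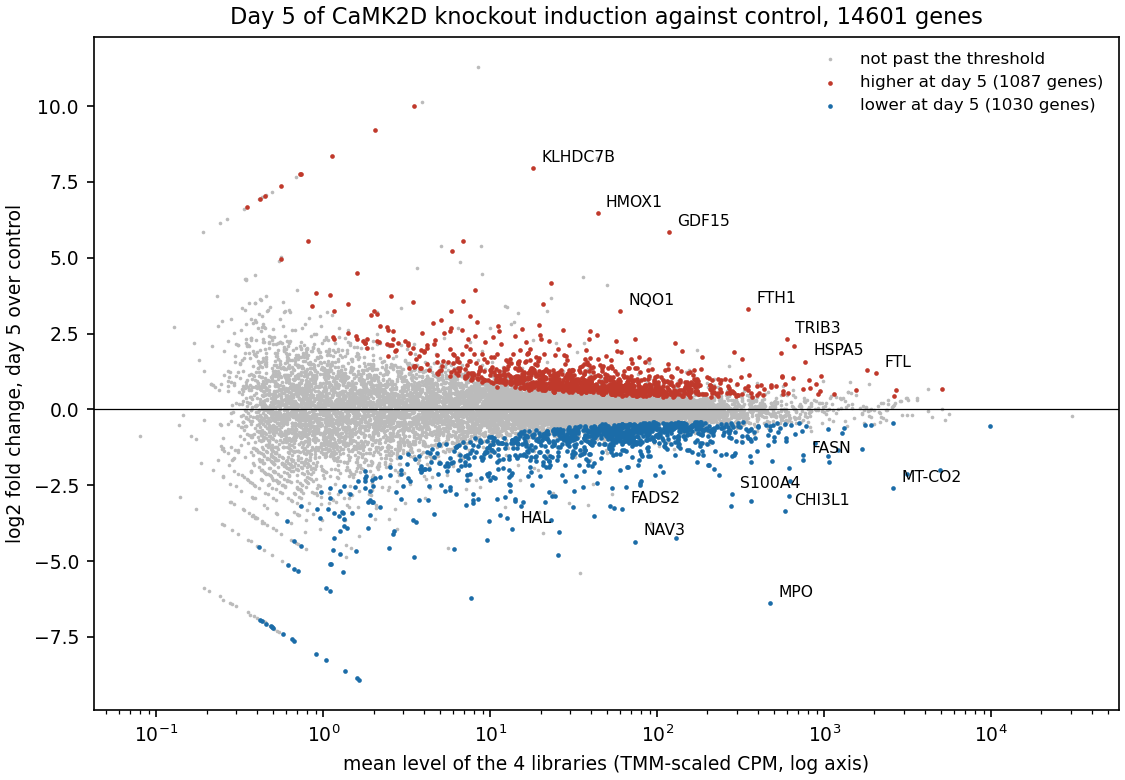
Each point is 1 of the 14601 tested genes. The x axis is the mean level of the 4 libraries in TMM-scaled CPM on a log axis and the y axis the log2 fold change, day 5 over control. Red points are the 1087 genes called higher, blue points the 1030 called lower and grey points genes not past the threshold. Changes as large as those of HMOX1 or MPO are rare among genes above 10 CPM.

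The called genes carried a large part of the RNA. Those called higher held 6.66% and 6.71% of all counts in control cells and 12.1% and 12.4% after 5 days, and those called lower went from 16.3% and 15.5% to 8.13% and 8.35%. Calls were more frequent at higher counts. They made up 1.71% of 1816 genes under 1 CPM, 7.88% of 3793 genes from 1 to 10 CPM, 19.1% of 6967 genes from 10 to 100 CPM, and 22.5% of 2025 genes over 100 CPM. By class, 16.3% of 12021 protein-coding genes were called (1031 higher, 933 lower), against 5.98% of 1706 long non-coding RNAs (31 higher, 71 lower). Falls outnumbered rises among long non-coding RNAs and rises outnumbered falls among protein-coding genes. By chromosome the called share ran from 9.38% (chromosome 17) to 18.3% (chromosome 21) among the autosomes, and the mitochondrial genome stood apart with 10 of 13 genes lower.

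The largest rises among called protein-coding genes with a mean of at least 10 CPM were KLHDC7B, HMOX1, GDF15, IFIT2, ESRP1, FTH1, NQO1, DDX60, IER5L and EGR1. KLHDC7B, a kelch-domain gene on chromosome 22 (50545891 to 50551023), had 2 and 3 counts in control cells and 557 and 740 after 5 days, or 31.5 and 40.4 CPM. It rose by 7.96 on the log2 scale (with SE 0.39 and edgeR adjusted p = 0.000125). The gene was thus close to undetected in both controls and clearly detected at day 5. GDF15, a secreted stress cytokine related to TGF-beta, stood at 3.79 and 4.22 CPM in control cells and 161 and 303 after 5 days, a rise of 5.85 (with SE 0.37 and edgeR adjusted p = 0.000731). ESRP1, an epithelial splicing regulator, stood at 3.60 and 3.21 CPM in control cells and 36.8 and 39.3 after 5 days, and the 2 libraries of each group were close to each other. IER5L, an immediate early response gene, rose from 3.98 and 1.87 to 24.5 and 14.3 CPM. TENM4, a teneurin of cell contacts, had 0 counts in both controls and 8.83 and 5.19 CPM at day 5, at least 87.2-fold higher when 3 counts over the control group are taken as the floor. It was the only gene besides KLHDC7B to go from at most 3 counts in each control to at least 5 CPM in each day 5 library, and 0 genes did the reverse.

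The largest falls included MPO, RNF175, NAV3, CD180, HAL, ADAMTS14, AQP3, HSD11B1 and CHI3L1. MPO, the haem peroxidase of myeloid granules, stood at 662 and 1220 CPM in control cells and 6.85 and 15.6 after 5 days, a log2 fold change of -6.39 (with SE 0.64 and edgeR adjusted p = 0.00725). NAV3, a neuron navigator that binds microtubules, stood at 153 and 128 CPM in control cells and 5.83 and 7.76 after 5 days, and HAL, the enzyme that opens histidine breakdown, at 29.6 and 21.1 CPM in control cells and 1.98 and 1.31 after 5 days. Both had day 5 libraries more than 10-fold under the controls. AQP3, a water and glycerol channel, stood at 58.9 and 95.5 CPM in control cells and 5.66 and 7.70 after 5 days, and CHI3L1, a secreted chitinase-like glycoprotein, at 1208 and 927 CPM in control cells and 76.9 and 132 after 5 days. The fall of AQP3 was 3.53 and that of CHI3L1 3.35 on the log2 scale. RNF175, a ring finger gene, stood at 40.2 and 57.4 CPM in control cells and 2.38 and 1.09 after 5 days (log2 fold change -4.81, SE 0.51). Some of these calls were lost when 1 library was left out. CD180 was not called once either control was left out (edgeR adjusted p = 0.0874 and 0.0749), nor was ADAMTS14 (0.119 and 0.11). With control replicate 1 left out, EGR1 missed the threshold (edgeR adjusted p = 0.0644). DDX60 missed it without control replicate 1, control replicate 2 or day 5 replicate 2 (edgeR adjusted p = 0.24, 0.264 and 0.0704). HSD11B1 missed it in every one of these fits but the 1 without control replicate 1, with edgeR adjusted p from 0.0546 to 0.144, and IFIT2 in each fit that left out a control or a day 5 library, at 0.0587 to 0.254.

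**Figure D2:**
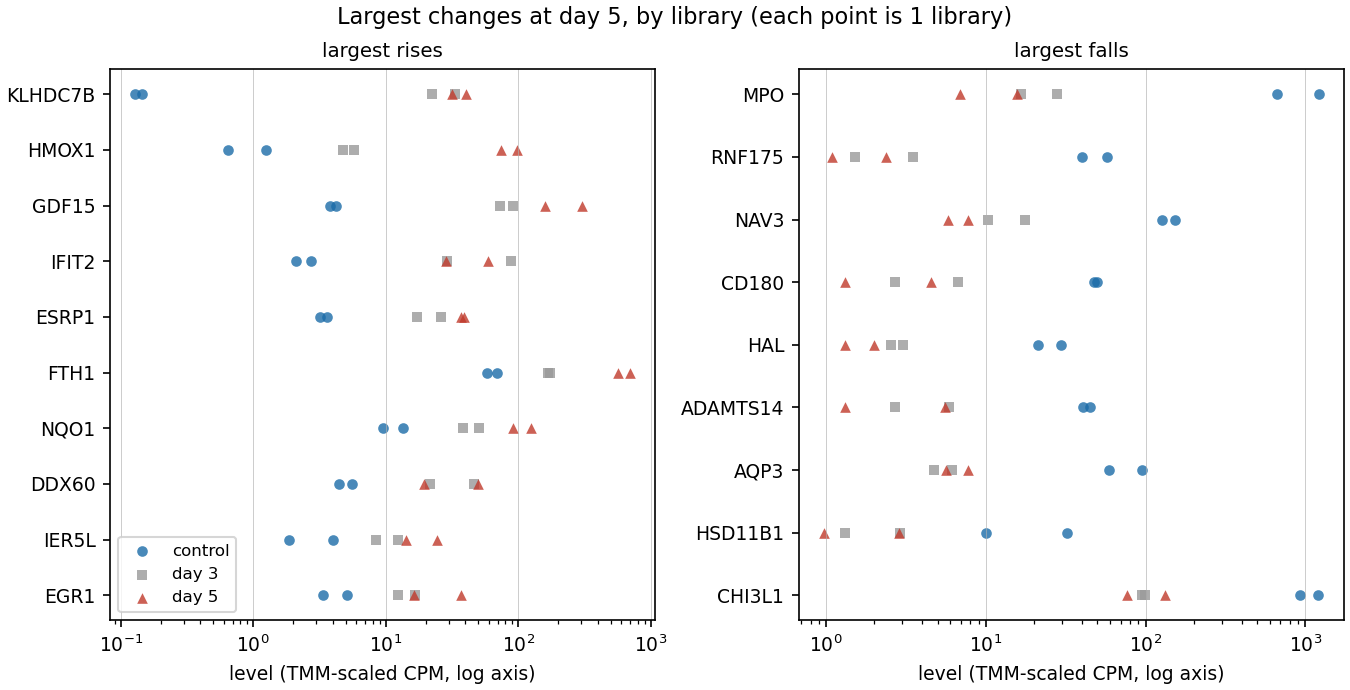
Levels of the largest rises (left) and falls (right) named in the text, in TMM-scaled CPM on a log axis. Each point is 1 library, with blue circles for controls, grey squares for day 3 and red triangles for day 5. HMOX1 and FTH1 show day 5 points well to the right of day 3, while MPO and CHI3L1 show day 3 and day 5 points close together, far to the left of the controls.

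Among abundant genes, with a mean of at least 200 CPM, the largest rises outside that set were TRIB3, TCEA1, HYOU1, PPIF, HSPA5 and FTL. TCEA1, a transcription elongation factor of RNA polymerase II, stood at 248 and 248 CPM in control cells and 1094 and 1036 after 5 days, a rise of 2.10 (with SE 0.12 and edgeR adjusted p = 0.000141). PPIF, the mitochondrial cyclophilin D, stood at 250.3 and 223 CPM in control cells and 993 and 725 after 5 days. Each pair of libraries was clear of the other, which the rule for naming these genes required. The largest falls were RNASE2, PRTN3, TSPOAP1, S100A4, MT-CO2 and PIM1. TSPOAP1, a scaffold that binds the mitochondrial translocator protein, stood at 908 and 1252 CPM in control cells and 133 and 167 after 5 days, a fall of 2.85 (with SE 0.28 and edgeR adjusted p = 0.00265). It overlaps an antisense gene, and reads of the pair cannot be told apart here. Of the long non-coding RNAs above 5 CPM, MALAT1, a nuclear speckle RNA, stood at 6.94 and 7.67 CPM in control cells and 29.1 and 23.5 after 5 days. ZFAS1, which overlaps ZNFX1, stood at 16.8 and 20.1 CPM in control cells and 61.2 and 60.03 after 5 days and SNHG5 at 117 and 189 CPM in control cells and 495 and 482 after 5 days, both hosts of small nucleolar RNAs. All 3 rose, by log2 fold changes of 1.85, 1.71 and 1.67. LINC00639 fell from 22.8 and 7.48 to 0.396 and 0 CPM and LINC01451 from 23.1 and 22.1 to 1.64 and 5.41 CPM. LINC01588 fell from 10.8 and 7.77 to 1.25 and 1.58 CPM and missed the threshold without day 5 replicate 1 (edgeR adjusted p = 0.0532).

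The rest of the account follows 45 gene lists, each read against the 14.5% called among all genes and the all-gene median of 0.01. The share called and the median differed widely between the lists. Sterol synthesis, the mitochondrially encoded mRNAs and myeloid granule proteins had medians of -0.99, -1.12 and -1.30, and ER chaperones one of 0.83. Nuclear-encoded respiratory chain genes and ribosome biogenesis lay near 0.

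**Figure D3:**
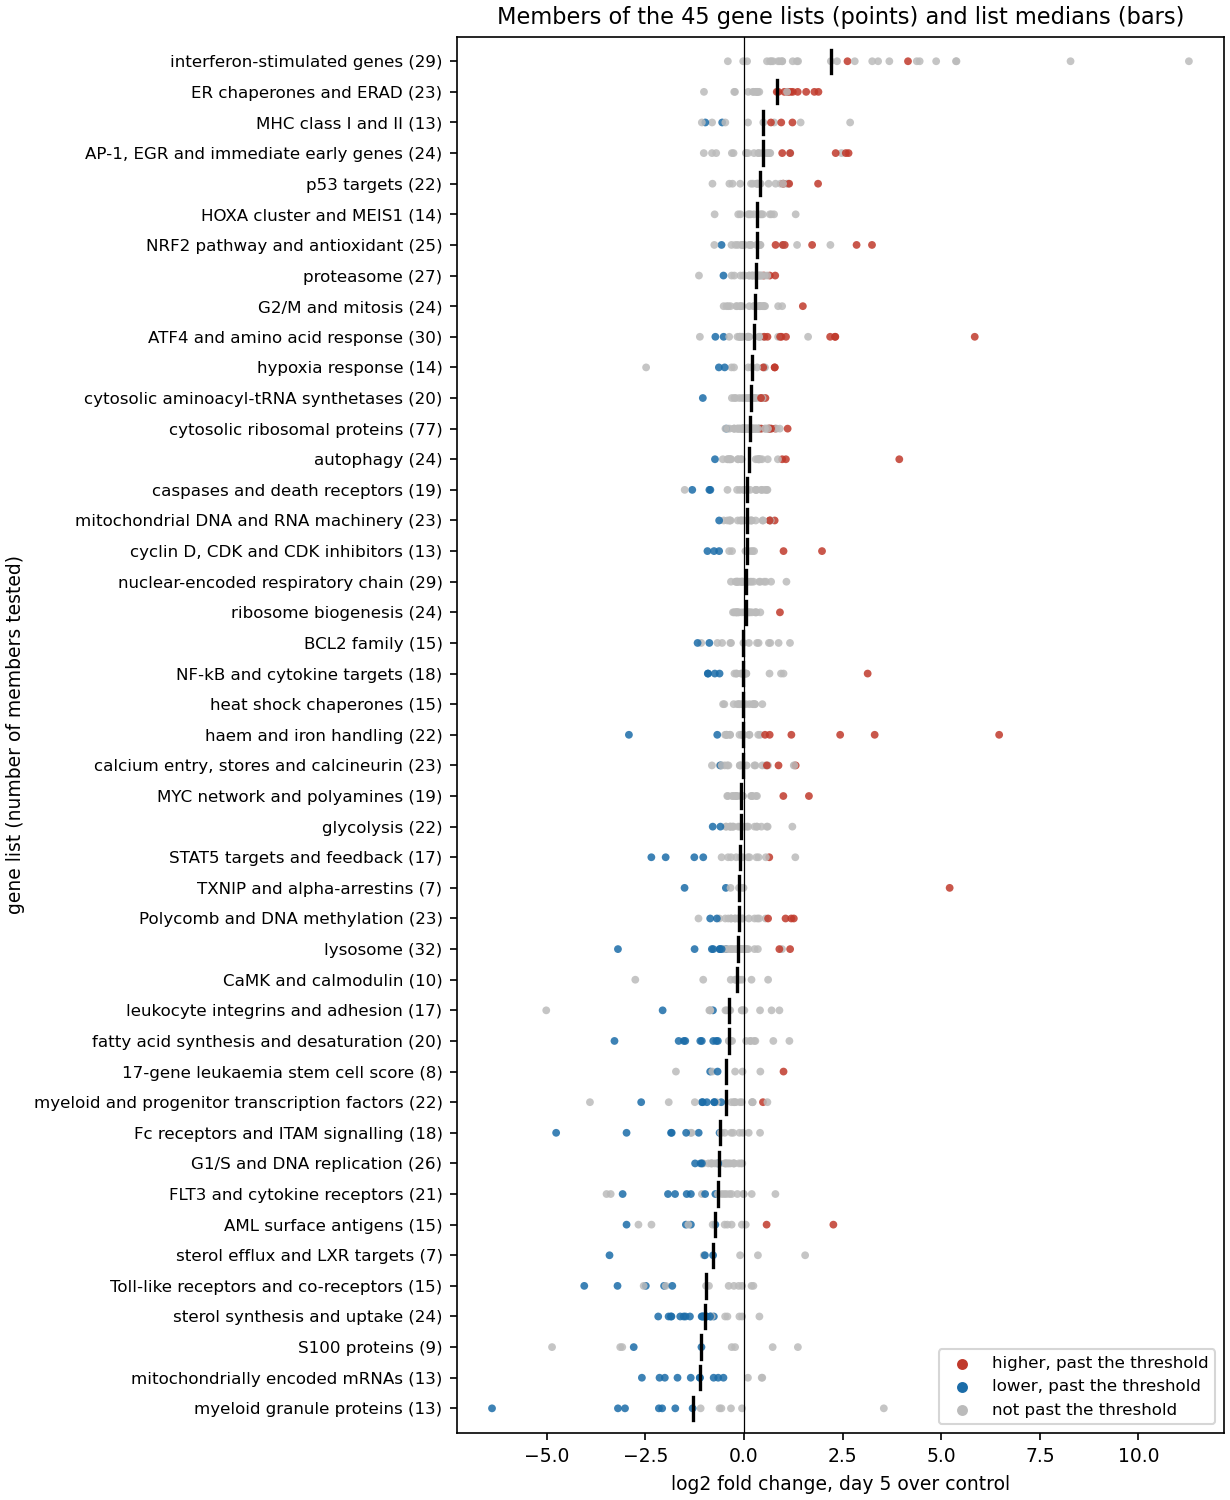
Log2 fold changes, day 5 over control, of the members of the 45 gene lists, ordered by list median (black bars). Each point is 1 tested gene, red if called higher, blue if called lower and grey if not past the threshold, and the number tested is in brackets. Interferon-stimulated genes have the highest median (2.20) with 2 red points, whereas the sterol list has 18 blue points among 24.

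Genes of haem breakdown and iron storage rose steeply while most of haem synthesis was not called. Of 22 tested members, 6 rose, 2 fell and 14 were not called. HMOX1, haem oxygenase 1, opens the haem ring and frees its iron (chromosome 22, 35380361 to 35394214), and stood at 0.642 and 1.25 CPM in control cells and 74.8 and 98.9 after 5 days, with 5.73 and 4.78 CPM at day 3. Both day 5 libraries were more than 50-fold above either control. It rose by 6.47 on the log2 scale (with SE 0.32 and edgeR adjusted p = 0.000125). FTH1, the ferritin heavy chain, stood at 69.6 and 57.8 CPM in control cells and 564 and 702 after 5 days, with 175 and 167 CPM at day 3. FTL, the ferritin light chain, stood at 1430 and 1059 CPM in control cells and 2969 and 2754 after 5 days. The heavy chain thus rose by 3.31 (with SE 0.16 and edgeR adjusted p = 0.000125) and the light chain by 1.20 (with SE 0.16 and edgeR adjusted p = 0.00426). Per length, FTL stayed the more abundant mRNA by the deposited FPKM (fragments per kilobase and per 1e6 fragments). It stood at 1417 FPKM against 31.4 for FTH1 in control cells and 3343 against 320.4 at day 5. How reads that match more than 1 place were counted is not known here, so this comparison between genes is uncertain. SLC48A1, a haem transporter of the endolysosome, stood at 13.5 and 13.8 CPM in control cells and 73.7 and 73.96 after 5 days, a rise of 2.44 (with SE 0.15 and edgeR adjusted p = 0.000187). It overlaps HDAC7 and RAPGEF3, whose reads may mix with its own. These 4 rises were called in all 6 fits that left out a library. BLVRB, a biliverdin reductase, rose by 0.65 and the mitochondrial iron importer SLC25A37 by 0.53. The haem synthesis enzyme ALAD (-0.68) and the phagosomal metal transporter SLC11A1 (-2.92) fell. All 4 of these calls were lost in at least 2 fits that left out a library, BLVRB without either day 5 library (edgeR adjusted p = 0.0745 and 0.108) and the others at up to 0.136, 0.0991 and 0.147. TFRC, the transferrin receptor, stood at 429 and 392.2 CPM in control cells and 369 and 234 after 5 days, a log2 fold change of -0.44 (with SE 0.21 and edgeR adjusted p = 0.196). The iron regulatory proteins ACO1 and IREB2 had values of -0.35 and -0.05 and were not called.

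Some genes of the NRF2 list also rose. Of 25 tested members, 6 rose, all of them called in every fit that left out a library, and 1 fell. NQO1, a quinone reductase, stood at 13.4 and 9.59 CPM in control cells and 126 and 91.9 after 5 days, with 50.98 and 38.4 CPM at day 3, a rise of 3.25 (with SE 0.25 and edgeR adjusted p = 0.000731). GCLM, the modifier subunit of the enzyme that starts glutathione synthesis, stood at 36.5 and 35.2 CPM in control cells and 116 and 122 after 5 days, with 48.7 and 51.9 CPM at day 3. Its rise was 1.73 (with SE 0.13 and edgeR adjusted p = 0.000392), and its catalytic partner GCLC rose by 1.03, from 25.2 and 21.1 to 46.7 and 47.9 CPM. OSGIN1, an oxidative stress-induced growth inhibitor, stood at 1.16 and 1.05 CPM in control cells and 7.19 and 8.85 after 5 days. Thioredoxin (TXN) stood at 198 and 170 CPM in control cells and 396 and 333 after 5 days and its reductase TXNRD1 at 328 and 284 CPM in control cells and 557 and 509 after 5 days. The groups did not overlap for any of these 6, as for every called gene. PRDX1, a peroxiredoxin, fell by 0.57 and was not called once either day 5 library was left out (edgeR adjusted p = 0.059 and 0.106). The regulators themselves were not called, with log2 fold changes of -0.06 for NFE2L2 (which encodes NRF2), -0.22 for its inhibitor KEAP1 and 0.16 for the repressor BACH1. Nor were the cystine carrier chain SLC7A11 (0.40, edgeR adjusted p = 0.053), SRXN1 (2.19, 0.0614) or the pentose phosphate enzyme TKT (0.02).

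NRF2 binds with small MAF proteins to the antioxidant response element, whose core was searched as TGACNNNGC on both strands of RefSeq promoter windows (GRCh38.p14, 250 bases before to 50 after the start). The GCLM window (chr1:93909381-93909680, minus strand) is printed because GCLM is the called member with the smallest adjusted p whose window holds a match. Capitals mark its single match, which begins 34 bases before the start site on the opposite strand.
GCLM promoter: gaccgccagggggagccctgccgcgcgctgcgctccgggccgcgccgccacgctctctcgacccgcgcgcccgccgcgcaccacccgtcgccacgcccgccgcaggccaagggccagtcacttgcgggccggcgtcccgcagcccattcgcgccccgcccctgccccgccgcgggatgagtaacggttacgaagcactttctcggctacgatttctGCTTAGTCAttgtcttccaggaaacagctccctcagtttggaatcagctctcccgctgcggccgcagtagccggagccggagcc
Of the 19 list members with a window, 4 held a match (GCLM, TXNRD1, PGD and ME1), against 13.6% of all 27305 windows. The short core is common, and 16.1% of the windows of genes called higher and 16.2% of those called lower held it.

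Genes of the ATF4 and amino acid response changed in both directions. Of 30 tested members, 9 rose and 2 fell, and 5 of the rises were called in every fit that left out a library. TRIB3, a pseudokinase induced by amino acid shortage and ER stress, stood at 214 and 186 CPM in control cells and 936 and 1056 after 5 days, a rise of 2.32 (with SE 0.13 and edgeR adjusted p = 0.000152). ATF5, a related bZIP factor, stood at 22.7 and 26.8 CPM in control cells and 109.5 and 136 after 5 days. PPP1R15A (GADD34), which directs the phosphatase that reverses eIF2-alpha phosphorylation, stood at 45.8 and 45.8 CPM in control cells and 181 and 235 after 5 days. All 3 rose more than 4-fold. SESN2, a sestrin that senses leucine, stood at 124 and 116 CPM in control cells and 213 and 249.6 after 5 days, a rise of 0.95 (with SE 0.13 and edgeR adjusted p = 0.0045). GDF15, given above, was the fifth. DDIT3 (CHOP), a factor of ER stress-induced death, stood at 8.93 and 10.7 CPM in control cells and 18.9 and 22.3 after 5 days, with 28.7 and 32.1 CPM at day 3. Its call was lost without day 5 replicate 2 (edgeR adjusted p = 0.0649). CEBPB, STC2 and SLC3A2 rose by 0.59, 0.92 and 0.51 and lost the call in at least 2 such fits, at up to 0.188, 0.111 and 0.116. The serine synthesis enzymes went the other way. PHGDH stood at 578 and 577 CPM in control cells and 417 and 389.9 after 5 days and PSPH at 219 and 248 CPM in control cells and 133 and 149.6 after 5 days, falls of 0.52 and 0.73, and PSPH lost the call without day 5 replicate 1 (edgeR adjusted p = 0.0709) and PHGDH without either day 3 or either day 5 library (at up to 0.119).

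SLC3A2, the heavy chain of amino acid exchangers, is the called member whose promoter window holds the CARE motif bound by ATF4 with C/EBP partners, searched as TGATGNAA on both strands. Its window (chr11:62881449-62881748, plus strand) shows the match in capitals, on the opposite strand and beginning 37 bases past the start site.
SLC3A2 promoter: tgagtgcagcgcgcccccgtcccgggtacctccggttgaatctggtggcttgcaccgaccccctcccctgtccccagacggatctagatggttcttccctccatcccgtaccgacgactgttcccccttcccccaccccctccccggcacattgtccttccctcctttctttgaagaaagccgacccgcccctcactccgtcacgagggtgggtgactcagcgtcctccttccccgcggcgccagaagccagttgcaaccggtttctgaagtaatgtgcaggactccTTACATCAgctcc
Of 25 members with a window, 5 held the motif (ATF3, CHAC1, ASNS, SLC3A2 and SLC7A1), against 3.67% of all windows. Only SLC3A2 of the 10 called members with a window held it. The window also holds 1 match of TGACNNNGC, which does not overlap the printed one.

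Of the ER genes for protein folding and degradation, the calls were mostly of chaperones. Of 23 tested members, 11 (47.8%) were called, all higher, each also in every fit that left out a library, and the list median was 0.83. None fell at an unadjusted p under 0.05 (0) or by DESeq2 (0). HSPA5 (BiP), the main ER chaperone of the HSP70 family (chromosome 9, 125234853 to 125241330), stood at 399 and 374 CPM in control cells and 1059 and 1247 after 5 days, a rise of 1.58 (with SE 0.13 and edgeR adjusted p = 0.000731). HYOU1, its nucleotide exchange partner, stood at 119 and 127 CPM in control cells and 451 and 459 after 5 days, a rise of 1.89 (with SE 0.12 and edgeR adjusted p = 0.000187), the largest of the list. HSP90B1 (GRP94), the ER member of the HSP90 family, stood at 402 and 309.7 CPM in control cells and 814 and 722 after 5 days. Levels at day 3, 932 and 992 CPM for HSPA5 and 448 and 428 CPM for HYOU1, were already well above the controls. The co-chaperones DNAJB9 (1.78), DNAJB11 (1.11) and SDF2L1 (1.18) rose, as did MANF (1.36), a secreted ER stress protein, and PDIA4 (0.87), a disulfide isomerase. CANX, the calnexin lectin, stood at 693 and 599 CPM in control cells and 1220 and 1078 after 5 days. Of the degradation genes SEL1L was called, while SYVN1 (0.30), EDEM1 (0.24), DERL1 (0.35) and DERL3 (-1.01) were not. SEL1L is the scaffold of the ubiquitin ligase that clears misfolded proteins, and stood at 101 and 85.8 CPM in control cells and 224 and 217 after 5 days, a rise of 1.24 (with SE 0.13 and edgeR adjusted p = 0.002). ERN1, the sensor IRE1-alpha, stood at 30.4 and 34.4 CPM in control cells and 71.4 and 60.4 after 5 days, and was the only 1 of the sensors and factors of this list to be called. XBP1 (log2 fold change -0.25) and ATF6 (-0.23) were not. CALR, the soluble lectin, was uneven in the controls, at 768 and 1181 CPM in control cells and 1073 and 1029 after 5 days, and HERPUD1 stood at 88.8 and 92.1 CPM in control cells and 89.8 and 122 after 5 days. The groups overlapped for CALR and HERPUD1.

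**Figure D4:**
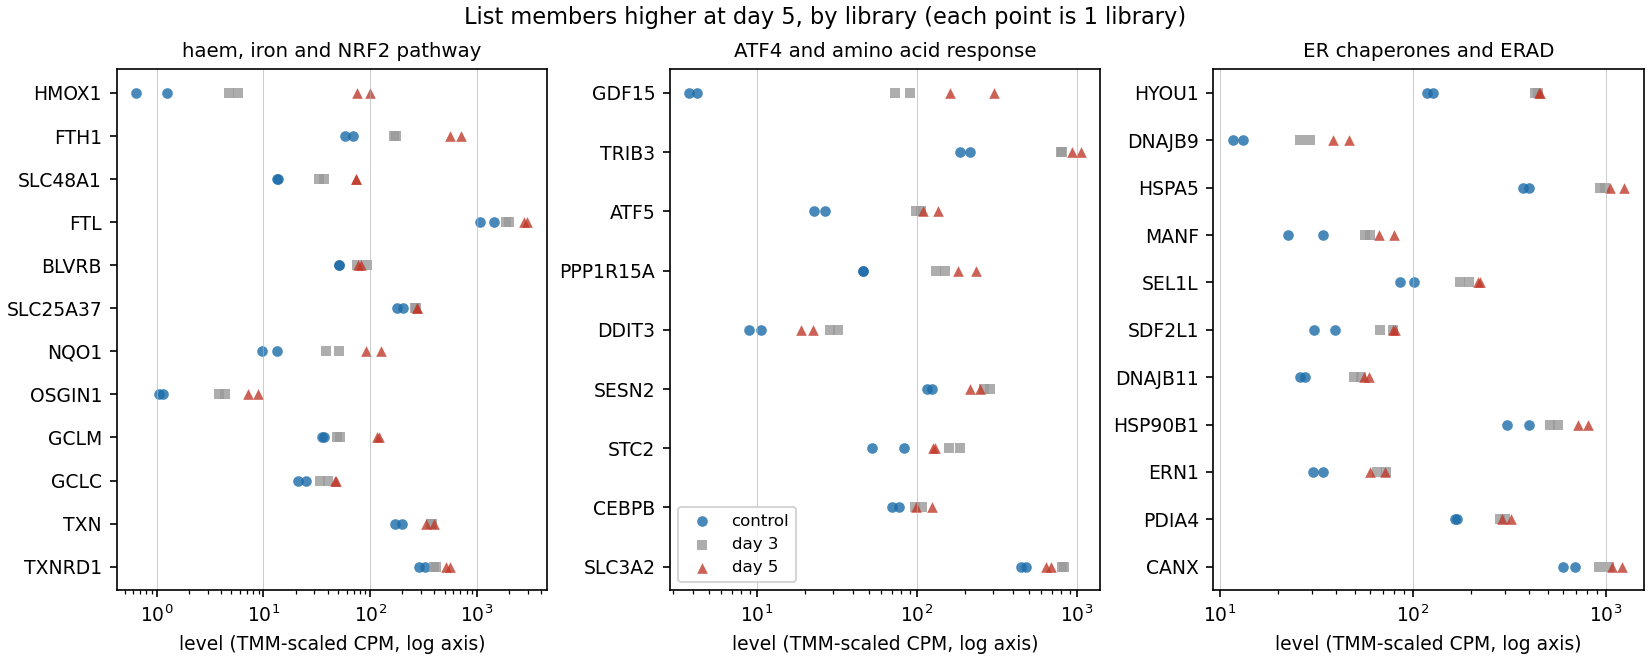
Levels of the list members called higher at day 5, in TMM-scaled CPM on a log axis, for haem, iron and NRF2 genes (left), the ATF4 list (middle) and ER chaperones (right). Each point is 1 library, with blue circles for controls, grey squares for day 3 and red triangles for day 5. HMOX1 moves from 0.642 and 1.25 CPM to 74.8 and 98.9 CPM, and for DDIT3, STC2 and SLC3A2 the day 3 points lie to the right of day 5.

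The ER stress response element was searched as CCAAT, any 9 bases, CCACG, on both strands. ATF6 and the general factor NF-Y bind its ends. The HSPA5 window (chr9:125241294-125241593, minus strand) holds 1 match, in capitals, which begins 66 bases before the start site on the gene's own strand. It is shown by the same rule.
HSPA5 promoter: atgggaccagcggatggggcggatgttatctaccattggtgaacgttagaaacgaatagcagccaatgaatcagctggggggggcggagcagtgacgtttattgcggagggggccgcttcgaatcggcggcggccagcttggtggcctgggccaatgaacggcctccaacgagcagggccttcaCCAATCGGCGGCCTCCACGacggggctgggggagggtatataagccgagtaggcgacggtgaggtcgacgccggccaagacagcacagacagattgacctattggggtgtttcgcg
Of the 20 members with a window, 6 held the element (HSPA5, HSP90B1, CALR, CANX, XBP1 and CRELD2), against 0.0806% of all windows. Of the 11 called members 3 held it. Among the windows of all genes called higher the share was 0.585% of 855, and among those called lower it was 0 of 755. Over the 9982 windows of tested genes it was 0.14%, so few matches could fall among 755. The 855 include the 3 called members, so their share is not separate from that of the list. A match describes these letters in the reference genome, not binding.

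The other protein homeostasis lists moved less. Of 15 tested cytosolic heat shock chaperones, 0 were called by edgeR, with 1 higher and 2 lower at an unadjusted p under 0.05 and 2 lower by DESeq2. HSP90AB1 stood at 2320 and 2185 CPM in control cells and 2167 and 1990 after 5 days and HSPA8 at 1671 and 1560 CPM in control cells and 1263 and 974 after 5 days, where HSPA8 had a log2 fold change of -0.53 (edgeR adjusted p = 0.0548). Of 27 proteasome genes, 3 rose and 1 fell (14.8% called, near the 14.5% of all genes). PSMD14, the deubiquitinase of the proteasome lid, stood at 65.1 and 69.8 CPM in control cells and 115 and 119 after 5 days and was the member called in every fit that left out a library. PSMA3, PSMA7 and PSMD1 lost the call in at least 4, at up to 0.157, 0.186 and 0.234. Of 24 autophagy genes, 3 rose and 1 fell. RETREG1, a receptor for autophagy of the ER, stood at 1.35 and 0.671 CPM in control cells and 17.3 and 13.3 after 5 days, a rise of 3.94 (with SE 0.42 and edgeR adjusted p = 0.002). SQSTM1 (p62), the ubiquitin receptor and also an NRF2 target, rose by 0.97 and GABARAPL1 by 1.06, and GABARAPL2 fell by 0.74. All 3 lost the call without day 5 replicate 2 (edgeR adjusted p = 0.0512, 0.0618 and 0.0969). Of 20 cytosolic aminoacyl-tRNA synthetases, 3 rose, by 0.43 to 0.54, and 1 fell. The fall, in the glutaminyl enzyme QARS, from 401 and 398 to 186 and 202 CPM (-1.04, SE 0.12), was the 1 called in every fit. The rises of EPRS, VARS and FARSB were lost in several fits, at edgeR adjusted p up to 0.123, 0.116 and 0.166.

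Lysosomal genes fell more often than they rose. Of 32 tested, 8 fell and 2 rose. GLA, alpha-galactosidase A, stood at 46.96 and 43.1 CPM in control cells and 18.4 and 19.3 after 5 days, a fall of 1.25 (with SE 0.17 and edgeR adjusted p = 0.00426), and CTSD, the aspartic protease cathepsin D, at 17.9 and 19.2 CPM in control cells and 39.3 and 43.97 after 5 days, a rise of 1.17 (with SE 0.16 and edgeR adjusted p = 0.00432). ASAH1, acid ceramidase, stood at 82.2 and 87.8 CPM in control cells and 162 and 154 after 5 days. CTSH, cathepsin H, had the largest fall of the list, from 20.6 and 34.7 to 1.81 and 4.21 CPM, and missed the threshold without day 5 replicate 1 (edgeR adjusted p = 0.052). CTSB, TPP1, LIPA, ATP6V0D1 and ATP6V0A1 fell by 0.45 to 0.82 and also lost the call in at least 1 such fit, at up to 0.126, 0.171, 0.136, 0.148 and 0.0674. LIPA overlaps IFIT2, a gene that rose, and reads from their shared exons cannot be told apart.

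Most genes of sterol synthesis and uptake fell. Of 24 tested members 18 (75%) fell and 0 rose (0 also at an unadjusted p under 0.05 and by DESeq2), and 13 of the falls were called in every fit that left out a library. Both day 5 libraries lay below both controls for 20 of the 24, against 28.4% of all tested genes. INSIG1, the ER anchor that holds back SREBP and is itself an SREBP target, stood at 374 and 395 CPM in control cells and 83.9 and 86.4 after 5 days, a fall of 2.17 (with SE 0.12 and edgeR adjusted p = 0.000141). DHCR7, which makes cholesterol from its last precursor in the route, stood at 142 and 181 CPM in control cells and 34.2 and 55.3 after 5 days, a fall of 1.85 (with SE 0.23 and edgeR adjusted p = 0.0045). ACAT2, the first enzyme of the mevalonate route, stood at 102 and 105 CPM in control cells and 28.3 and 26.8 after 5 days, and it overlaps SOD2 and TCP1. MVK and LSS also overlap other genes. The fall spanned the route from MVK (-1.62) and IDI1 (-0.98) through squalene formation by FDFT1 (-1.03) and its oxidation by SQLE (-1.06) to lanosterol by LSS (-1.53) and the late steps MSMO1 (-1.48) and EBP (-1.07). HMGCS1, MVD, FDPS, HSD17B7 and the master factor SREBF2 fell by 0.76 to 0.96. Their calls were lost in at least 1 fit without a library, at edgeR adjusted p up to 0.0938, 0.0888, 0.0731, 0.1 and 0.0661. The members not called were TM7SF2, SC5D, NSDHL, STARD4, CYP51A1 and PMVK, and of these PMVK had a value above 0 (0.39). STARD4 stood at 17.1 and 17.5 CPM at day 3 and 30.96 and 40.1 CPM at day 5, against 36.2 and 40.9 in the controls.

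SREBF2, which stood at 492 and 400.5 CPM in control cells and 212 and 279.8 after 5 days, was the only member whose window held the sterol regulatory element, searched as TCACNCCAC on both strands. The window lies at chr22:41832855-41833154 on the plus strand, and the match, in capitals, begins 133 bases before the start site (0.86 lower, edgeR adjusted p = 0.0147).
SREBF2 promoter: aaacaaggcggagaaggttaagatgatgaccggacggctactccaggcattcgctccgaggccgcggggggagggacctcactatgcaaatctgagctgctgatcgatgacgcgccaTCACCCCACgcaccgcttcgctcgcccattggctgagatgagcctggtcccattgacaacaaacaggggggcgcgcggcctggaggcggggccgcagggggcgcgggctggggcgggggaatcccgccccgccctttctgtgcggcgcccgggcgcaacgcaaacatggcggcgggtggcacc
It was 1 of 18 members with a window (12 of them called), and 1.15% of all windows held the element. Sterol elements with other letters, or outside these 300 bases, would not be found by this search.

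Every call in fatty acid synthesis was of a lower gene. Of 20 tested members 9 fell and 0 rose (2 rose at an unadjusted p under 0.05 and 2 by DESeq2). FASN, fatty acid synthase, stood at 1234 and 1045 CPM in control cells and 359 and 364 after 5 days, and SCD, the delta-9 desaturase, at 1641 and 1501 CPM in control cells and 512 and 579 after 5 days. FADS2, the delta-6 desaturase, stood at 102 and 120.4 CPM in control cells and 12.6 and 10.2 after 5 days. The falls were 1.66 (with SE 0.13 and edgeR adjusted p = 0.000517), 1.52 (with SE 0.13 and edgeR adjusted p = 0.000858) and 3.28 (with SE 0.24 and edgeR adjusted p = 0.000392). FADS2 overlaps FADS1 and FEN1. SREBF1, the factor that drives this branch, stood at 266 and 230.5 CPM in control cells and 103 and 127 after 5 days, and overlaps RAI1. These 4 were called in every fit that left out a library. FADS1, ACSS2, ELOVL1, ACACA and ACLY fell by 0.66 to 1.49 and lost the call in at least 1, at edgeR adjusted p up to 0.0506, 0.0507, 0.1, 0.0577 and 0.0614. ELOVL6, an elongase, stood at 2.76 and 3.93 CPM in control cells and 6.62 and 8.30 after 5 days, a value of 1.15 that was not called (with SE 0.34 and edgeR adjusted p = 0.0565). Of 7 tested genes of sterol efflux and LXR targets, 3 fell and 0 rose (1 rose at an unadjusted p under 0.05 and 0 by DESeq2). ABCA1, a cholesterol exporter, stood at 2.06 and 2.21 CPM in control cells and 0.170 and 0.218 after 5 days, MYLIP, a ubiquitin ligase induced by LXR, at 70.5 and 55.3 CPM in control cells and 37.2 and 35.8 after 5 days, and LPCAT3, a phospholipid remodelling enzyme, at 27.4 and 31.9 CPM in control cells and 15 and 14.9 after 5 days. All 3 calls were lost in at least 1 fit, at up to 0.0863, 0.0977 and 0.0546.

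**Figure D5:**
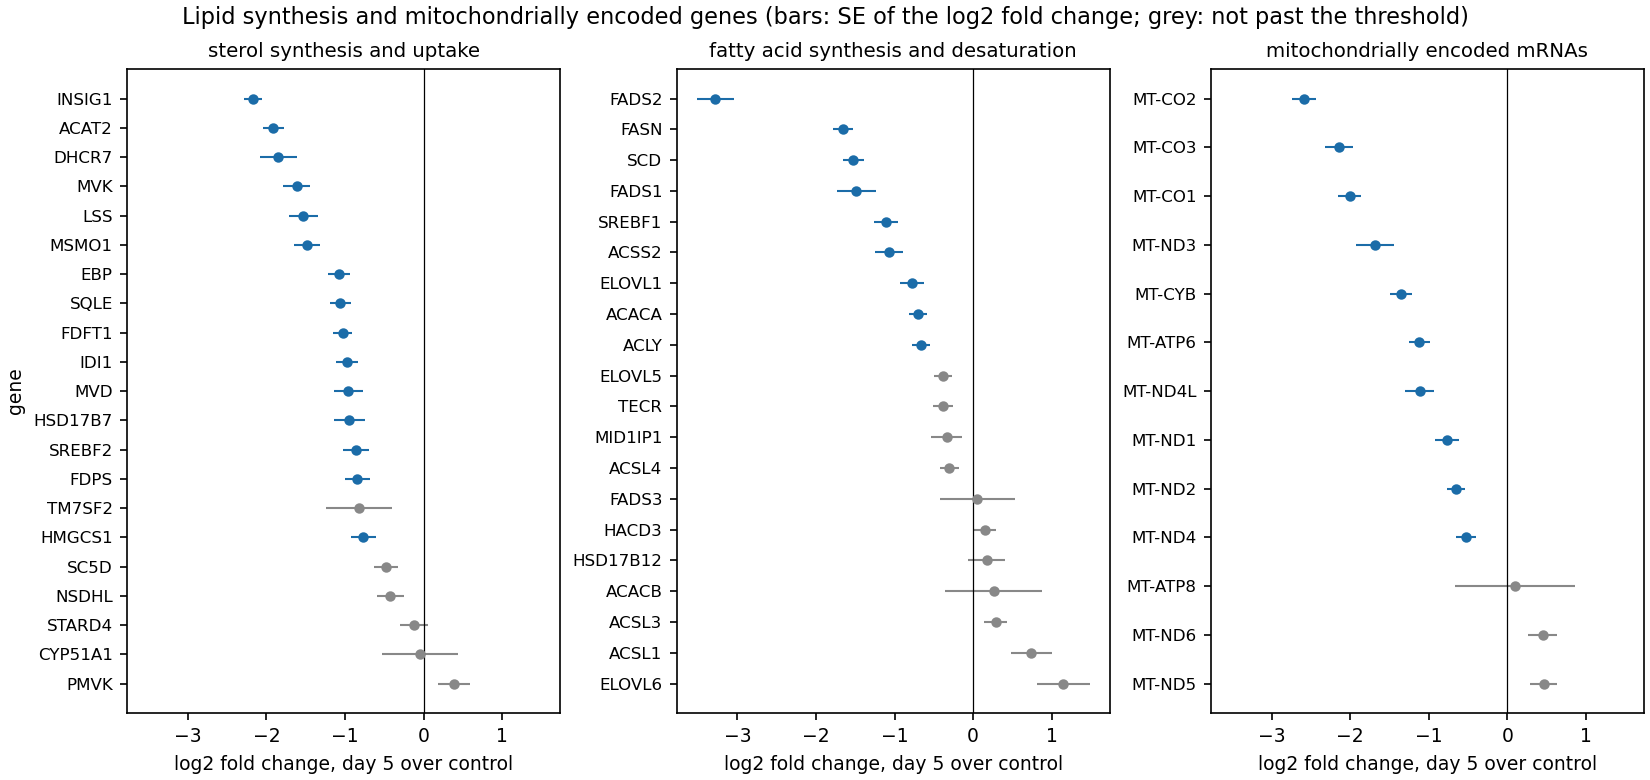
Log2 fold changes, day 5 over control, of tested members of the sterol list (left), the fatty acid list (middle) and the mitochondrially encoded mRNAs (right), with bars for the SE. Blue points were called lower and grey points were not past the threshold. The sterol list runs from INSIG1 (-2.17) to PMVK (0.39), and MT-CO2, MT-CO3 and MT-CO1 lie below the complex I genes.

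The mRNAs encoded in mitochondrial DNA fell unevenly. Of 13 tested, 10 fell and 0 rose (2 rose at an unadjusted p under 0.05 and 0 by DESeq2), and together they went from 3.05% and 2.52% of counts in control cells to 1.08% and 1.14% at day 5. MT-CO1, MT-CO2 and MT-CO3 encode the core of cytochrome c oxidase. MT-CO1 stood at 8754 and 7148 CPM in control cells and 2035 and 1918 after 5 days, MT-CO2 at 4783 and 4078 CPM in control cells and 766 and 707 after 5 days and MT-CO3 at 5865 and 4362 CPM in control cells and 1230 and 1088 after 5 days. They fell by 2.01, 2.59 and 2.14 on the log2 scale. MT-CYB, of complex III, fell by 1.35 and MT-ATP6, of the ATP synthase, by 1.12. These 5 were called in every fit that left out a library. The complex I genes MT-ND1, MT-ND2, MT-ND3, MT-ND4 and MT-ND4L fell by 0.52 to 1.69, and each lost the call in at least 1 such fit, at edgeR adjusted p up to 0.0822, 0.0731, 0.0571, 0.137 and 0.0542. MT-ND5, at 1483 and 1125 CPM in control cells and 1600 and 1994 after 5 days, and MT-ND6, at 268 and 346 CPM in control cells and 353 and 485 after 5 days, had values above 0 (0.46 and 0.45) and were not called. MT-ATP8 was under 1 CPM in every library. The genes lie on overlapping or adjoining transcripts, and MT-ND4 with MT-ND4L, and MT-CO3, MT-ATP6 and MT-ATP8, share bases.

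The nuclear genes of the same complexes were not called. Of 29 tested nuclear-encoded respiratory chain genes, 0 were called by edgeR (3 higher and 1 lower at an unadjusted p under 0.05, and 1 in each direction by DESeq2), and the list median was 0.05. ATP5F1B stood at 1861 and 1829 CPM in control cells and 1761 and 1820 after 5 days. Of 23 genes that copy, transcribe or stabilise mitochondrial DNA and RNA, 3 rose and 1 fell, a share near that of all genes. SSBP1, the mitochondrial single-strand binding protein, stood at 107 and 132 CPM in control cells and 198 and 180 after 5 days and SLIRP, which stabilises mitochondrial mRNA, at 21.1 and 28.1 CPM in control cells and 39.8 and 37.6 after 5 days. MTERF1 rose by 0.78 and FASTKD5 fell by 0.63. All 4 calls were lost in at least 2 fits that left out a library, at up to 0.0921, 0.155, 0.108 and 0.128. In glycolysis 2 of 22 genes fell, PKM from 1636 and 1515 to 1061 and 1020 CPM and ALDOC from 22.2 and 27.8 to 12.7 and 16.2 CPM, and both calls were lost without either day 5 library (edgeR adjusted p = 0.0572 and 0.0827 for PKM). TXNIP, which slows glucose uptake, stood at 281 and 275 CPM in control cells and 91.9 and 104 after 5 days, a fall of 1.51 (with SE 0.12 and edgeR adjusted p = 0.000673). Its relative ARRDC3 moved the other way, from 0.321 and 0.288 to 12.1 and 10.9 CPM (5.21, SE 0.40, edgeR adjusted p = 0.000517). The TXNIP partner MLX fell by 0.46, a call lost in several fits (at up to 0.16). Of 14 hypoxia genes 3 rose and 2 fell. VEGFA, at 369 and 385 CPM in control cells and 592 and 702 after 5 days, was the member called in every fit, and EGLN1, P4HA1, BHLHE40 and ERO1A lost the call at up to 0.215, 0.0997, 0.116 and 0.154.

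Some products of the myeloid programme were lower, MPO (above) most of all in its list. Of 13 tested granule protein genes 7 fell and 0 rose (1 rose at an unadjusted p under 0.05 and 0 by DESeq2). RNASE2, the eosinophil-derived neurotoxin, stood at 559 and 444 CPM in control cells and 51.8 and 57.6 after 5 days, a fall of 3.20 (with SE 0.22 and edgeR adjusted p = 0.000392), and its close relative RNASE3 at 30.3 and 26.6 CPM in control cells and 5.94 and 7.54 after 5 days. AZU1, azurocidin, stood at 1497 and 1783 CPM in control cells and 459.8 and 521 after 5 days. MS4A3, a membrane protein of granulocyte-monocyte progenitors, stood at 151 and 168 CPM in control cells and 33 and 38.5 after 5 days. With MPO these were the 5 called in every fit that left out a library. PRTN3, proteinase 3, stood at 441 and 852 CPM in control cells and 66.5 and 93.3 after 5 days, a fall of 3.02 whose edgeR adjusted p of 0.0475 rose to between 0.159 and 0.22 without either control or either day 5 library. SRGN, the granule proteoglycan serglycin, fell by 1.30 and was lost in the same 4 fits, at up to 0.27. The fall did not take in the whole azurophil granule. ELANE, neutrophil elastase, stood at 1098 and 863 CPM in control cells and 1085 and 808 after 5 days and its groups overlapped (-0.05, edgeR adjusted p = 0.888). CTSG stood at 1404 and 566 CPM in control cells and 895 and 429 after 5 days, and LYZ, at 139 and 391.6 CPM in control cells and 18.96 and 229 after 5 days, differed more between the day 5 libraries than between the groups.

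Some pattern recognition receptors were lower as well. Of 15 tested Toll-like receptor genes 5 fell and 0 rose (0 also at an unadjusted p under 0.05 and by DESeq2). TLR2, which senses bacterial lipopeptides, stood at 65.5 and 51.97 CPM in control cells and 15 and 13.8 after 5 days, and TLR4, the endotoxin receptor, at 27.8 and 17.1 CPM in control cells and 4.30 and 3.66 after 5 days. CD36, a scavenger receptor and TLR2 partner, stood at 69.9 and 43.05 CPM in control cells and 7.13 and 5.08 after 5 days. The falls were 2.03, 2.49 and 3.21. LY86 (MD-1), which pairs with CD180, stood at 121 and 117 CPM in control cells and 25.8 and 41.7 after 5 days, and CD180 itself at 49.9 and 47.3 CPM in control cells and 1.30 and 4.53 after 5 days. Of 18 Fc receptor and ITAM signalling genes 7 fell and 0 rose (0 also at an unadjusted p under 0.05 and by DESeq2). FCGR2A, the low-affinity IgG receptor, stood at 54.4 and 51.1 CPM in control cells and 12.7 and 16.9 after 5 days, a fall of 1.83 (with SE 0.23 and edgeR adjusted p = 0.00362). CLEC12A, an inhibitory lectin, stood at 11.1 and 16.9 CPM in control cells and 1.25 and 2.29 after 5 days. Both were called in every fit that left out a library. FCGR1A, FCER1G, SYK and LILRB4 fell by 0.62 to 1.85 and CLEC7A from 1.93 and 2.92 to 0 and 0.164 CPM. These 5 lost the call in at least 2 fits, at edgeR adjusted p up to 0.108, 0.116, 0.157, 0.148 and 0.138. S100A4, a calcium-binding protein of motile cells, stood at 428 and 547 CPM in control cells and 70.3 and 70.1 after 5 days, a fall of 2.80 (with SE 0.15 and edgeR adjusted p = 0.000141), and S100A10, the annexin A2 partner, at 77.8 and 75.5 CPM in control cells and 33.7 and 38.9 after 5 days. S100A8 and S100A9, the calprotectin chains, stood at 53.96 and 52.3 CPM in control cells and 1.81 and 10.7 after 5 days for S100A8 and 67.9 and 71.1 CPM in control cells and 1.81 and 13.9 after 5 days for S100A9. Both day 5 libraries lay more than 4-fold below the controls, yet these differences were not called (edgeR adjusted p = 0.0974 and 0.103) and the day 5 libraries were far apart. The summed levels given above of the markers of T and NK cells, of B cells and of epithelial, stromal and packaging cells were also lower in both day 5 libraries than in either control, while the erythroid and megakaryocyte sum overlapped between the groups, and their part in these results was not tested.

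Of 21 tested receptors for growth factors and cytokines, 7 fell, 6 of them in every fit that left out a library, and 0 rose (1 rose at an unadjusted p under 0.05 and 0 by DESeq2). FLT3, the class III receptor kinase of early myeloid cells, stood at 1063 and 876 CPM in control cells and 241 and 269 after 5 days, with 341 and 328 CPM at day 3, a fall of 1.93 (with SE 0.14 and edgeR adjusted p = 0.000392). KIT, the stem cell factor receptor, stood at 18.2 and 10.1 CPM in control cells and 1.64 and 1.69 after 5 days. IL3RA (CD123) stood at 54.6 and 51.8 CPM in control cells and 19.2 and 22.6 after 5 days, IL6R at 437 and 422 CPM in control cells and 170.2 and 144 after 5 days and IL17RA at 526 and 593 CPM in control cells and 149.9 and 184 after 5 days. All of these day 5 pairs lay below both controls, as for every gene called lower. IL4R fell by 0.99 and IL1RAP by 0.73, the last lost without control replicate 1 or either day 5 library (edgeR adjusted p = 0.102, 0.109 and 0.147). CSF1R, the M-CSF receptor, stood at 30.9 and 40.99 CPM in control cells and 1.53 and 5.35 after 5 days, a value of -3.38 that was not called (with SE 0.91 and edgeR adjusted p = 0.0733). Of 17 STAT5 targets and feedback genes 4 fell and 1 rose. PIM1, a survival kinase, stood at 942 and 1140 CPM in control cells and 139.6 and 269 after 5 days, and PIM2 at 125 and 119.5 CPM in control cells and 42.4 and 59.5 after 5 days, while PIM3 stood at 66.9 and 70.8 CPM in control cells and 101 and 114 after 5 days. The feedback inhibitor SOCS1 stood at 105 and 85.5 CPM in control cells and 18.6 and 29.3 after 5 days and CISH at 82.4 and 97.7 CPM in control cells and 36.9 and 51.1 after 5 days. Only the fall of PIM2 was called in every fit. PIM1 was not called once either control was left out (edgeR adjusted p = 0.167 and 0.174), PIM3 without day 5 replicate 2 (0.0941), SOCS1 without control replicate 1 or day 5 replicate 1 (0.0774 and 0.0621), and CISH at up to 0.0987.

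Among 22 myeloid and progenitor transcription factors 7 fell and 1 rose. NFE2, the haematopoietic p45 bZIP factor, stood at 91.4 and 93.4 CPM in control cells and 12.6 and 17.7 after 5 days, with 29.6 and 29.02 CPM at day 3, a fall of 2.61 (with SE 0.19 and edgeR adjusted p = 0.000392). MYB, a progenitor factor, stood at 459 and 411 CPM in control cells and 232 and 185 after 5 days, and RUNX1 at 582 and 435 CPM in control cells and 259 and 271 after 5 days. These 3 were called in every fit. CEBPA, which drives granulocyte-monocyte commitment, was the 1 riser, at 315 and 343 CPM in control cells and 448 and 469 after 5 days. ZEB2, IKZF1, CEBPD and SPI1 fell by 0.58 to 1.05. The 5 calls of CEBPA, ZEB2, IKZF1, CEBPD and SPI1 were lost in at least 1 fit without a library, at edgeR adjusted p up to 0.13, 0.0514, 0.124, 0.163 and 0.186. The HOXA cluster, which KMT2A fusions keep active, showed no call. Of 14 tested members with MEIS1 and its partners, 0 passed the edgeR threshold, 0 had an unadjusted p under 0.05 and 0 were called by DESeq2. HOXA9 stood at 87.6 and 41.8 CPM in control cells and 75.5 and 45.7 after 5 days and MEIS1 at 19.1 and 21.5 CPM in control cells and 29.6 and 24.6 after 5 days, and HOXA9 varied more within than between groups.

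Surface antigens of leukaemia cells split. Of 15 tested, 2 rose and 4 fell. CD38, an NAD-consuming ectoenzyme, stood at 6.17 and 9.21 CPM in control cells and 37.7 and 36.6 after 5 days, with 24.9 and 28.97 CPM at day 3, a rise of 2.27 (with SE 0.22 and edgeR adjusted p = 0.00152). CD47, the "do not eat me" signal, stood at 58.2 and 51.01 CPM in control cells and 84.5 and 77.8 after 5 days, a call lost in 5 of the 6 fits that left out a library, at up to 0.127. CD82, a tetraspanin, stood at 42.5 and 61.5 CPM in control cells and 18.4 and 19.1 after 5 days, and CLEC12A, IL3RA and IL1RAP are given above. Of 17 integrin and adhesion genes 2 fell and 0 rose (2 rose at an unadjusted p under 0.05 and 1 by DESeq2), a share under that of all genes. PECAM1 (CD31) stood at 217 and 134 CPM in control cells and 40.7 and 43.3 after 5 days, a fall of 2.06 (with SE 0.22 and edgeR adjusted p = 0.00231). ITGAM, the CD11b chain, stood at 28.4 and 38.6 CPM in control cells and 18 and 20.9 after 5 days and was lost in 5 fits, at up to 0.142. Of the 8 tested genes of a 17-gene leukaemia stem cell score 1 rose (CDK6) and 2 fell (LAPTM4B by 0.67 and DNMT3B by 0.86), all 3 lost in at least 2 fits, at up to 0.0812, 0.145 and 0.198.

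Interferon-stimulated genes had the highest list median, 2.20 over 29 tested members (also 2.20 with IFI44L, at 0 counts in both controls, set to its bound), yet 2 (6.9%) were called, fewer than among all genes. For 20 members both day 5 libraries lay above both controls and for 0 below, against 29.6% of all genes above and 28.4% below. The spread at day 5 was wide. OAS2, which makes the 2'-5' oligoadenylates that activate RNase L, stood at 0 and 0.479 CPM in control cells and 4.64 and 168 after 5 days (edgeR adjusted p = 0.187). IFI6 stood at 2.44 and 4.08 CPM in control cells and 9.68 and 128 after 5 days, IFIT1 at 0.193 and 0.575 CPM in control cells and 6.51 and 27.7 after 5 days and ISG15 at 10.7 and 15.1 CPM in control cells and 24.1 and 95.3 after 5 days. In each of these, day 5 replicate 2 was several fold above replicate 1, and at day 3 replicate 2 was likewise the higher, at 22.8 and 273 CPM for OAS2 and 49.2 and 249.9 CPM for IFI6. The list median was 0.68 without day 5 replicate 2. The 2 called genes were IFIT2, at 2.12 and 2.73 CPM in control cells and 28.6 and 58.9 after 5 days, and DHX58 (LGP2), a cytosolic RNA sensor, at 1.61 and 2.16 CPM in control cells and 7.41 and 16.01 after 5 days. DHX58 was not called once either control was left out (edgeR adjusted p = 0.0795 and 0.0515). Their interferon response element, searched as GAAANNGAA, was in 15 of the 21 members with a window, against 8.29% of all windows, and neither called gene had a window. Of 13 MHC genes 3 rose and 2 fell. B2M, the light chain of class I, stood at 596 and 549 CPM in control cells and 783 and 1055 after 5 days and the peptide transporter genes TAP1 and TAP2 at 24.2 and 25.4 CPM in control cells and 46.3 and 69.8 after 5 days for TAP1 and 16.1 and 11.6 CPM in control cells and 24.6 and 28.6 after 5 days for TAP2. CD74, the class II invariant chain, fell from 166 and 187 to 76.9 and 102 CPM and TAPBP by 0.55. All 5 calls were lost in at least 1 fit, at up to 0.17, 0.176, 0.133, 0.0608 and 0.148.

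Immediate early genes rose in part. Of 24 tested, 5 rose and 0 fell (1 fell at an unadjusted p under 0.05 and 1 by DESeq2), and none of the 5 was called in every fit that left out a library. EGR1, a zinc finger factor of growth signals, stood at 3.34 and 5.08 CPM in control cells and 16.5 and 36.8 after 5 days, and KLF10, induced by TGF-beta, at 18.7 and 7.58 CPM in control cells and 62.9 and 67.5 after 5 days. JUN stood at 24.2 and 20.4 CPM in control cells and 49.1 and 37.96 after 5 days, with 20.9 and 20.8 CPM at day 3. IER3 and DUSP2 rose by 2.58 and 1.17. JUN was lost without day 5 replicate 1 (edgeR adjusted p = 0.0812), IER3 and DUSP2 without day 5 replicate 2 (0.0685 and 0.0845) and KLF10 without either (0.0742 and 0.0828). Of 18 NF-kB and cytokine targets 1 rose and 4 fell. The chemokine CXCL2 stood at 0.257 and 0.575 CPM in control cells and 2.38 and 5.19 after 5 days, while NFKB1, TNFAIP3, IL1RN and CCL5 fell by 0.62 to 0.92. All 5 calls were lost in at least 2 fits, at up to 0.132, 0.12, 0.113, 0.0834 and 0.166.

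Of 22 p53 targets 3 rose and 0 fell (0 also at an unadjusted p under 0.05 and by DESeq2), a share of 13.6%. GADD45A, a DNA damage and stress-induced gene, stood at 19.9 and 31.7 CPM in control cells and 79.5 and 111 after 5 days, a rise of 1.88 (with SE 0.25 and edgeR adjusted p = 0.00527). RRM2B and PLK3 rose by 0.99 and 1.15 and were lost without day 5 replicate 2 (edgeR adjusted p = 0.141 and 0.0867), RRM2B also without either control. CDKN1A, the p21 inhibitor, stood at 461 and 891 CPM in control cells and 764 and 1808 after 5 days, and its groups overlapped. In the BCL2 family 2 of 15 fell and 0 rose (2 rose at an unadjusted p under 0.05 and 1 by DESeq2). BCL2, the antiapoptotic founder, stood at 167 and 178 CPM in control cells and 97.5 and 90.1 after 5 days and BMF, a BH3-only antagonist, at 76.9 and 72.05 CPM in control cells and 32.6 and 33.3 after 5 days. BMF was called in every fit and BCL2 missed the threshold without day 5 replicate 2 (edgeR adjusted p = 0.0507). Of 19 caspases and death receptor genes 3 fell and 0 rose (3 rose at an unadjusted p under 0.05 and 0 by DESeq2). CFLAR (FLIP), which blocks caspase-8, stood at 129.5 and 136 CPM in control cells and 73.3 and 73.8 after 5 days and CASP2 at 188 and 137 CPM in control cells and 77.1 and 53.9 after 5 days, both called in every fit. APAF1, the apoptosome scaffold, stood at 103 and 92.9 CPM in control cells and 56.6 and 50.04 after 5 days and was lost without day 5 replicate 2 (0.0728).

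Of 26 G1/S and replication genes 4 fell and 0 rose (0 also at an unadjusted p under 0.05 and by DESeq2), 15.4% against 14.5% of all genes. The list median was -0.63 and for 14 members both day 5 libraries lay below both controls, against 28.4% of all genes. UNG, the uracil DNA glycosylase, stood at 83.9 and 85.3 CPM in control cells and 45.9 and 34.8 after 5 days, with 108 and 101 CPM at day 3, a fall of 1.07 (with SE 0.16 and edgeR adjusted p = 0.00562). CDT1, a licensing factor, stood at 207 and 158 CPM in control cells and 94.2 and 75.7 after 5 days, cyclin E1 (CCNE1) at 10.3 and 9.44 CPM in control cells and 5.04 and 3.33 after 5 days and MCM7 at 430.4 and 455 CPM in control cells and 327 and 237 after 5 days. The last 3 were lost without day 5 replicate 2 (edgeR adjusted p = 0.0847, 0.128 and 0.166), CCNE1 and MCM7 also without either control or either day 3 library. The list median was -0.33 without day 5 replicate 2, -0.39 without control replicate 1 and -1.03 without day 5 replicate 1. Of 24 G2/M genes 1 rose and 0 fell (0 also at an unadjusted p under 0.05 and by DESeq2). It was CDC20, the anaphase activator, at 58.98 and 63.2 CPM in control cells and 208 and 136 after 5 days, lost without control replicate 1 (edgeR adjusted p = 0.0607). In the cyclin D and CDK list 2 of 13 rose and 3 fell. CCND3, cyclin D3, stood at 671 and 651 CPM in control cells and 389 and 391.9 after 5 days and CDKN3, a CDK phosphatase, at 7.58 and 6.42 CPM in control cells and 33.5 and 21.7 after 5 days, both called in every fit. CDK6 stood at 188 and 122 CPM in control cells and 328 and 293 after 5 days, CDK2 at 43.2 and 39.4 CPM in control cells and 24.3 and 19.1 after 5 days and the pocket protein RBL2 at 109 and 92.3 CPM in control cells and 64.5 and 65.4 after 5 days, and these were lost at up to 0.0812, 0.0822 and 0.096.

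Of 23 Polycomb and DNA methylation genes 4 rose and 2 fell. BMI1, the PRC1 ring subunit, stood at 86.4 and 76.2 CPM in control cells and 186 and 204 after 5 days, a rise of 1.263 (with SE 0.13 and edgeR adjusted p = 0.00172). It was called in every fit. PCGF5 and DNMT3A rose by 1.20 and 0.61 and DNMT1 and DNMT3B fell by 0.69 and 0.86, all 4 lost in at least 2 fits, at up to 0.124, 0.186, 0.126 and 0.198. In the MYC and polyamine list 2 of 19 rose and 0 fell (2 fell at an unadjusted p under 0.05 and 1 by DESeq2). MYC itself stood at 614 and 603 CPM in control cells and 509.9 and 545 after 5 days, with 892 and 1112 CPM at day 3, and was not called. ODC1, the first enzyme of polyamine synthesis, stood at 123 and 98.5 CPM in control cells and 258 and 185 after 5 days and SMOX, spermine oxidase, at 9.51 and 18.4 CPM in control cells and 36.6 and 51.2 after 5 days. ODC1 was lost without control replicate 2 or day 5 replicate 1 (edgeR adjusted p = 0.0532 and 0.0575) and SMOX without day 5 replicate 2 (0.0828). Of 24 ribosome biogenesis genes 1 rose and 0 fell (0 also at an unadjusted p under 0.05 and by DESeq2). It was NOP58, a box C/D core protein, at 110.2 and 92.2 CPM in control cells and 209 and 172 after 5 days. Of 77 cytosolic ribosomal protein genes 6 rose and 1 fell (9.09%), by at most 1.11 (RPL36), and all 7 (RPL28, RPL30, RPL36, RPS12, RPS18, RPS19 and the lower RPL7A) were lost in at least 4 fits, with highest values of 0.069 to 0.185. The list median, 0.16, was -0.01 without control replicate 1. Near-identical processed copies make ribosomal protein counts uncertain.

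In calcium handling, the setting of the targeted kinase, 3 of 23 genes rose and 1 fell, a share near the 14.5% of all genes. STIM1, the ER calcium sensor that opens store-operated entry, stood at 56.2 and 45.5 CPM in control cells and 137 and 115 after 5 days, with 103 and 79.6 CPM at day 3, a rise of 1.31 (with SE 0.18 and edgeR adjusted p = 0.00467). It was called in every fit that left out a library. ITPR1, the inositol trisphosphate receptor of the ER, stood at 104 and 109 CPM in control cells and 168 and 224 after 5 days and ATP2B4, a plasma membrane calcium pump, at 144 and 138 CPM in control cells and 93.95 and 92.4 after 5 days. RCAN1, a calcineurin inhibitor, stood at 31.6 and 28.3 CPM in control cells and 47.8 and 41.8 after 5 days. ITPR1 was lost without day 5 replicate 2 (edgeR adjusted p = 0.0714), ATP2B4 without either day 5 library (0.0809 and 0.103) and RCAN1 in all 6 fits, at up to 0.201.

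Day 5 was set directly against day 3, the only test here of whether a change grew. By edgeR 4 of 14601 genes (0.0274%) differed, all higher at day 5, and DESeq2 called 435 (223 higher, 212 lower). At an unadjusted p under 0.05 edgeR gave 2206. With the replicate number of the labels as a block it called 1117 (648 higher, 469 lower). HMOX1 was 4.04 higher on the log2 scale than at day 3 (SE 0.26, edgeR adjusted p = 0.00443), FTH1 1.89 (SE 0.15, edgeR adjusted p = 0.0116) and GCLM 1.24 (SE 0.12, edgeR adjusted p = 0.0303). The fourth, TNFRSF10D, a decoy receptor for TRAIL, stood at 97.9 and 88.5 CPM in control cells, 91.7 and 81.9 after 3 days and 200.5 and 226 after 5, a difference of 1.30 between the days (SE 0.13, edgeR adjusted p = 0.0303). Its day 3 libraries overlapped the controls, whereas the other 3 genes lay between the controls and day 5 at day 3. All 4 were also called at day 5 against control in every fit that left out a library. The remaining 1083 genes called higher and all 1030 called lower at day 5 were not past the threshold between the days in the fit without a block, which does not show that they did not differ. Leaving out any 1 of the day 3 libraries, or day 5 replicate 2, left 1 gene called between the days, HMOX1. Without control replicate 1 the count was 14 and without control replicate 2 it was 15.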

How the data were processed

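Poly-A RNA of 6 MOLM-13 libraries was sequenced, 2 per group. Per the file headers, 2 kinds of value were deposited for each gene, raw counts and FPKM. The submitters' processing notes name HISAT2, HTSeq 0.11.2, DESeq2 1.26.0 and GRCh38, with no role or order. How strand was handled, and with which annotation, is not given in the sources used here, so overlapping and antisense genes cannot be told apart. All 24878 identifiers were found in GENCODE 29, which gave coordinates and classes.

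Counts as deposited were filtered with filterByExpr (minimum count 10, total 15), scaled by TMM and fitted in R 4.3.3 with edgeR 4.0.16, by the robust quasi-likelihood test on 3 groups of 2 libraries, with no block. Residual degrees of freedom were 3. The SE was taken as the size of the fitted log2 change divided by the root of its F statistic. A count of 0 allows up to 0.142 to 0.194 CPM (3 counts, counting error only). On simulated data with 200 altered genes, the test for day 5 against control recovered 37.4% of the 99 set at 2-fold and 64% of the 100 set at 4-fold, with 13 false calls of 14174 genes. The deposited FPKM values, made by the authors, were used to compare levels between genes and in limma 3.58.1 (at a mean FPKM of at least 0.5). DESeq2 1.42.0 was run as an alternative.

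Named genes were the 10 largest rises and falls among called protein-coding genes with groups apart and a mean from 10 CPM up, 6 each at 200 CPM, 3 long non-coding RNAs each at 5 CPM, and up to 4 called members of each list by adjusted p. Clone-based, antisense, pseudogene and numbered-locus names were left out. A few genes that the rule named or that belong to a list are not reported by name here, in text or figures, but stay in all counts and medians. Other called members are named for completeness, chosen after their values were seen, as were TENM4 and TNFRSF10D. The members and lists were chosen with earlier results of these data known. Alternatives were other scaling factors, other filters, only the 4 libraries compared, the replicate block, and leaving out each library.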

Additional observations from a re-analysis of the deposited data

Results flagged for a closer look

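For 3 of the named genes the change differed between 3 and 5 days of induction by edgeR's test of the difference itself. The day 5 minus day 3 log2 difference was 4.043 for HMOX1, 1.888 for FTH1 and 1.241 for GCLM. HMOX1 stood at 5.73 and 4.78 CPM at day 3 and 74.8 and 98.9 at day 5, FTH1 at 175 and 167 and 564 and 702, and GCLM at 48.7 and 51.9 and 116 and 122. HMOX1 was past the threshold in all 6 fits that left out a library. FTH1 was not without day 3 replicate 1, day 3 replicate 2 or day 5 replicate 2 (edgeR adjusted p = 0.157, 0.19 and 0.0566), and GCLM was not without either day 3 or either day 5 library (edgeR adjusted p = 0.397, 0.425, 0.185 and 0.419). The days differ in doxycycline exposure and time since induction at once, and these cannot be told apart.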

How the results depend on the processing

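Of 162 named genes past the threshold, 80 passed it under every alternative that gave a value, and none of the 173 tested named genes reversed direction. Both day 5 libraries lay on the same side of both controls for every called gene. A reversal was therefore unlikely from the start, and its absence is no test of these calls. Other scaling moved the median of all genes by at most 0.023 (log2). DESeq2 called 2977 genes, and 2105 of them were among the 2117. With the FPKM filter, limma called 1810 genes on log2(FPKM + 1), 1595 of them shared, and 1742 on log2(FPKM + 0.1), 1560 of them shared. The 2117 calls became 3234 with no filter, 1315 with only the 4 libraries compared, 605 by limma with no filter, and 723 to 1874 when 1 library was left out, a fit in which the lone library borrows its spread from the remaining groups. The 1087 higher became 592 (4 libraries), 323 (limma, no filter) and 360 to 940 (1 library left out). The 1030 lower became 1784 (no filter), 282 (limma, no filter) and 363 to 934. The 914 of at least 2-fold became 572 by limma on log2(FPKM + 1), 361 with no filter there, and 558 to 833. The 4 between the days became 599 (no filter), 435 (DESeq2), 1 and 0 by limma with a pseudocount of 1 and 0.1, 0 with no filter there, and 1 to 15. Groups share replicate numbers 1 and 2. Replicate differences correlated across 14601 genes at 0.355 (control and day 3), 0.303 (control and day 5) and 0.347 (the 2 days), and same-numbered samples share a letter in their titles, but no label says what either marks, so they were not taken as pairs. With the replicate number as a block, 4418 genes were called, 2305 higher and 2113 lower, 1417 of them at least 2-fold, and 1117 between the days, and all 2117 were among the 4418. Of genes under 1 CPM, 1.71% were called; the cause was not tested.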
